A study of Homo sapiens with 9 samples.

Results

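The proteasome genes described here were the protein-coding genes of GRCh37 whose symbol begins PSMA, PSMB, PSMC, PSMD, PSME, PSMF or PSMG followed by a number, which gave 50 of 20136 protein-coding genes. Of these, 48 encode subunits, activators, an inhibitor or assembly factors of the proteasome, and 2, PSMC3IP and PSME3IP1, match only because they are named for a binding partner. Peaks came from FAIRE-seq of the leukaemia-derived human T cell line Jurkat, of which 1 clone, E6-1, was used. FAIRE (formaldehyde-assisted isolation of regulatory elements) recovers DNA that crosslinks poorly to protein, so a peak marks chromatin with few nucleosomes, called accessible. The peaks of 4 libraries were joined wherever they touched or overlapped, which gave 40703 regions on the autosomes, X and Y, and 92 of these lay in a proteasome gene or within 5 kb of one of its transcription start sites (TSS).

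By the labels, the lists came from nonstimulated cells given the solvent DMSO (NS DMSO), cells given DMSO, stimulated for 4 h with the phorbol ester PMA and the calcium ionophore ionomycin, washed and cultured for 1 day (SW DMSO), nonstimulated cells pre-treated for 1 h with 15 µM rottlerin, a kinase inhibitor used here against protein kinase C (NS rottlerin), and cells with the same pre-treatment that were then stimulated, washed and rested in that way (SW rottlerin). The labels give no list to the other 5 samples of the series, the stimulated and restimulated cells and the total input. Which cells the lists describe is in doubt: joining every peak of the 4 lists, other sequences included, gave 40731 regions. The study's methods give that same total for peaks called in the DMSO-treated samples alone, and they give a shorter first stimulation than the labels. Those DMSO-treated samples include stimulated and restimulated cells. The 28 regions that lay outside the autosomes, X and Y also equal the number that the methods removed. Each list is therefore named below by its label, and no direction between lists is read as an effect of the withdrawn stimulus or of rottlerin. Each list is 1 library, so no difference between lists has a replicate check and no test was made.

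The proteasome degrades proteins tagged with ubiquitin. Its barrel-shaped 20S core is built of rings of alpha and beta subunits, with the proteolytic sites on the inside of the beta rings, and a 19S cap of ATPases and non-ATPases recognises, unfolds and feeds in the substrate. In lymphocytes, inducible beta subunits replace the constitutive catalytic ones to form the immunoproteasome, whose peptides feed presentation on MHC class I.

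A peak within 1 kb of the TSS of the Ensembl canonical transcript, here called a TSS region, was found in at least 1 list for 48 of the 50 genes, and for 47.4% of all protein-coding genes. It was present in all 4 lists for 38 (76.0%), and for 31.9% of all genes. Among genes that had a TSS region in any list, the share with it in every list was 79.2% (38 of 48) for proteasome genes and 67.4% for all genes. A TSS region in some but not all lists was found for 10 genes (background 15.4%), and 7 had one in another list and none in the NS DMSO list (background 11.5%). Both backgrounds are over all 20136 genes, of which 52.6% had no TSS region in any list. Among genes with a TSS region in any list, these counts were 10 and 7 of 48, against 3111 and 2324 of 9542 over all genes. The same count over the ribosomal protein genes gave 74 of 83 cytosolic and 51 of 78 mitochondrial genes in all 4 lists. The neighbourhood of the TSS was therefore accessible for a larger share of proteasome genes than of all genes, and for a share between those of the ribosomal families.

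**Figure D1:**
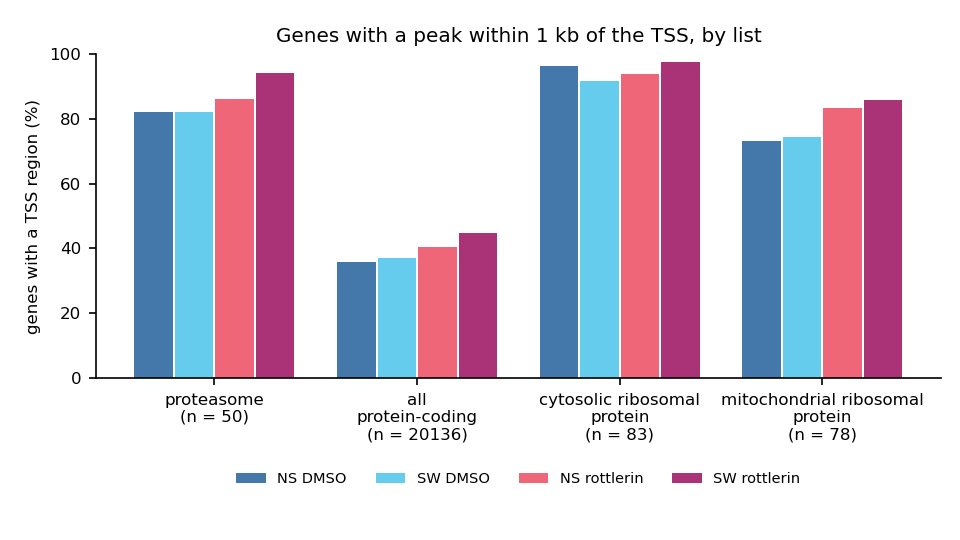
Share of genes with a peak within 1 kb of the TSS (y axis, percent) in each of the 4 lists (bars) for proteasome genes, all protein-coding genes and the cytosolic and mitochondrial ribosomal protein genes. Proteasome genes run from 82.0% in the lists labelled NS DMSO and SW DMSO to 94.0% in the list labelled SW rottlerin, and all genes from 35.8% to 44.8%.

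The lists differ in length, with 18977, 20132, 23835 and 30409 peaks in the order NS DMSO, SW DMSO, NS rottlerin and SW rottlerin, and the number of reads behind each is not known here. Proteasome genes with a TSS region numbered 41, 41, 43 and 47 in the same order. The number of peaks thus moved with the count of genes, and its part in the count was not tested. Where a list has no peak, the signal was below that list's calling threshold, which does not show closed chromatin. In a bulk library, a region open in fewer cells and a region less open in every cell cannot be told apart. The T cell identity of the line was only partly visible at the TSS: 9 of 12 T cell markers had a TSS region, 3 of them (CD3D, CD3E and CD28) in all 4 lists, while CD2, LCK and CD4 had none. None of the 4 B cell, 4 myeloid, 2 erythroid or 1 hepatocyte markers had one, and of 3 epithelial markers only KRT8 did.

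The promoter sequences below are shown for the 3 genes with the highest fold enrichment in the NS DMSO list (PSMD2, PSMD4 and PSMA6) and for 3 genes whose peak appeared in some lists only (PSMA7, PSMC1 and PSMA8). Each is the longest stretch of the 250 bases before the TSS outside every annotated exon, read from the GRCh37 genome and written 5′ to 3′ on the strand of the gene. Capitals mark matches, on either strand, of TGACNNNGC (the core of the antioxidant response element, the site known for NFE2L1 and NFE2L2), CCAAT (NF-Y), CCGGAAG (ETS factors) and GGGCGG (SP1), and matches may overlap.
PSMD2, chr3:184016779-184016985, plus strand, 207 bases: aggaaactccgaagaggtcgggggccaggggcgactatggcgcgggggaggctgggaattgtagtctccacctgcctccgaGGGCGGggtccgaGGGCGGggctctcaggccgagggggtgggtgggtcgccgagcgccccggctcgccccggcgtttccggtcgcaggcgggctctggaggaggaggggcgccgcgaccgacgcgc
PSMD4, chr1:151226960-151227184, plus strand, 225 bases: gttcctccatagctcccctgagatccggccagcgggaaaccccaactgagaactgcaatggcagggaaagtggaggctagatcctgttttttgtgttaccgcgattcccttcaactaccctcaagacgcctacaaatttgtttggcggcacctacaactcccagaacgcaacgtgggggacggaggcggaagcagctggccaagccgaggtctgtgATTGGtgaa
PSMA6, chr14:35761338-35761522, plus strand, 185 bases: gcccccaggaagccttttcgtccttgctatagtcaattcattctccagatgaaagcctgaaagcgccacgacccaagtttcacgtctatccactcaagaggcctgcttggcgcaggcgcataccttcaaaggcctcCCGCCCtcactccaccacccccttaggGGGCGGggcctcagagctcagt
PSMA7, chr20:60718497-60718700, minus strand, 204 bases: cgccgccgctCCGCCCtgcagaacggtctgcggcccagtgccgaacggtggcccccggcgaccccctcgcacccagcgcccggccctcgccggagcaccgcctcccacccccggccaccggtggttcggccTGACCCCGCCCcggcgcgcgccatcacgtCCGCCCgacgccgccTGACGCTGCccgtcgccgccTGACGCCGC
PSMC1, chr14:90722647-90722870, plus strand, 224 bases: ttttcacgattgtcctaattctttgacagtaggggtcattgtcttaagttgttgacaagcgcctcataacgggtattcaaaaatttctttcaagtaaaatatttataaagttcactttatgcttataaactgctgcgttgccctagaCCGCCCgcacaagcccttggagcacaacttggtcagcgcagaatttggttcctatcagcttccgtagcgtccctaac
PSMA8, chr18:23713583-23713815, plus strand, 233 bases: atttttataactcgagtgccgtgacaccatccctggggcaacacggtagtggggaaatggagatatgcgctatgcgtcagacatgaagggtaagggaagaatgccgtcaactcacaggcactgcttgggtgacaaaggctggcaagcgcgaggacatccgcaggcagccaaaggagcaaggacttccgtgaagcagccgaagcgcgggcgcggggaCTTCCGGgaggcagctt

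PSMA7 held 3 matches of the antioxidant response element core, whose first bases lie at −119, −75 and −55 from the TSS, and the first and last overlap an SP1 match. PSMD2 held paired GGGCGG matches and PSMD4 a reversed CCAAT box, while the stretch shown for PSMC1 held 1 SP1 match and that of PSMA8 1 reversed ETS match.

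Values given below are the fold enrichment that the peak caller reported for the FAIRE library over the total input, on a linear scale, in the order NS DMSO, SW DMSO, NS rottlerin and SW rottlerin. Where a list had several peaks in a region, the highest was taken, and where a gene had several TSS regions, the region with the highest mean was taken.

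The alpha ring had a TSS region in all 4 lists for 5 of 8 genes. These rings gate the entrance of the core. PSMA3, at 6.57, 6.88, 6.14 and 7.60, and PSMA6, at 6.96, 6.26, 6.77 and 5.98, were the highest of them in every list. PSMA2 had 5.18, 4.94, 4.49 and 4.99 and PSMA5 had 4.23, 4.24, 4.60 and 4.00, both within a narrow range. PSMA1 was lowest in NS DMSO, at 3.06 against 4.36, 3.87 and 4.46, in a broad region (chr11:14540739-14542316) whose midpoint lies in an intron 404 bp after the TSS. PSMA4 had 3.48 and 3.50 in the DMSO lists and 3.86 in SW rottlerin, with no peak in NS rottlerin.

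PSMA7 had a peak only in the rottlerin-labelled lists, of 4.63 and 4.12, in a region of 225 bp (chr20:60718373-60718597) that covers its TSS and lies between it and the divergent gene SS18L1, 375 bp away. Its scores, 101 and 75 (10 times −log10 of the q-value, rounded down), were the highest among genes that lacked a peak in some list. PSMA8, which encodes an alpha subunit known from the testis, had a peak only in SW rottlerin, of 2.70 with a score of 14, in an intron.

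The beta ring was the most uniform of the larger groups, with a TSS region in all 4 lists for 7 of 7 genes. The genes of the catalytic subunits were PSMB5 (chymotrypsin-like activity), at 4.68, 3.70, 4.38 and 4.75, PSMB6 (caspase-like activity), at 3.94, 3.59, 4.33 and 3.55, and PSMB7 (trypsin-like activity), at 3.85, 3.73, 3.72 and 4.12. Each of these catalytic genes was lowest in a different list, and each spanned less than 1.5-fold. PSMB2 had 4.71, 4.83, 4.94 and 6.03, PSMB3 had 5.12, 5.71, 4.87 and 4.99, and PSMB4 had 4.30, 4.82, 3.91 and 4.17. PSMB1 had 4.77, 4.81, 5.59 and 5.61 in a region at −945 bp from the TSS, but that region lies 117 bp from the TSS of TBP, the TATA-binding protein gene. A nearer region, with its midpoint 11 bp from the TSS of PSMB1, had a peak only in the SW-labelled lists, of 3.6 and 4.33. The presence of PSMB1 in all lists thus rests on the region beside TBP.

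Of the inducible catalytic subunits of the immunoproteasome, 3 of 3 had a TSS region in all 4 lists, and for PSMB8 and PSMB10 that region did not cover the TSS. PSMB9 shares its region (chr6:32821450-32822007) with TAP1, the peptide transporter gene transcribed the other way from 488 bp off, at 3.59, 2.99, 3.42 and 3.34. PSMB8 had 3.79, 3.78, 3.61 and 3.86 in a region with its midpoint at −884 bp. PSMB10 had 5.11, 4.42, 4.71 and 5.18 in a region with its midpoint 1035 bp downstream, 174 bp from the TSS of an overlapping gene record (ENSG00000261884), while the region at its own TSS had a peak only in NS rottlerin, of 3.06. PSMB11, the thymus-specific catalytic subunit of cortical epithelium, had no region at all.

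Restricted to regions within 250 bp of the TSS, 35 genes (70.0%, against 31% of all genes) kept a peak in all 4 lists, and PSMB1, PSMB8 and PSMB10 did not. A region that covers the TSS itself was present in all lists for 34 genes, with PSME2 the further loss.

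The ATPases of the 19S cap unfold the substrate, and 4 of 6 genes had a TSS region in all 4 lists. PSMC3 was among the steadiest genes, at 6.59, 6.74, 6.74 and 6.48, followed by PSMC4 at 5.64, 4.98, 5.78 and 5.62 and PSMC6 at 5.11, 4.92, 4.84 and 5.91. PSMC5 was the weakest of these 4 genes, at 2.89, 2.49, 3.05 and 2.56. PSMC1 had a peak only in the SW-labelled lists, of 3.51 in each with a score of 59 in each, in a region of 182 bp that covers its TSS (chr14:90722755-90722936). PSMC2 had a peak only in the rottlerin-labelled lists, of 2.63 and 3.15, with scores of 27 and 28.

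Among the non-ATPases, 10 of 11 genes had a TSS region in all 4 lists. PSMD2, the cap scaffold that docks ubiquitin shuttles, had the highest fold enrichment of all 50 genes in 3 lists, at 7.88, 6.84, 8.03 and 7.91. PSMD4, a ubiquitin receptor, had 7.10, 6.95, 6.17 and 7.86, and PSMD8 had 6.66, 6.56, 6.41 and 7.16. At the lower end, PSMD6 had 3.13, 2.57, 3.47 and 3.09 and PSMD1, the other large scaffold, had 3.36, 4.02, 3.75 and 4.19. PSMD11 stood out in 1 list, at 6.25 in NS rottlerin against 4.86, 4.88 and 4.95 in the others. PSMD7 was lowest in that list, at 3.00 against 3.49, 3.81 and 4.2, and so was PSMD12, at 4.15 against 5.21, 4.40 and 5.09. PSMD3 had 4.93, 4.42, 5.03 and 5.36 and PSMD13 had 3.73, 4.51, 4.47 and 4.68. PSMD14, the deubiquitinase that removes the ubiquitin chain, had a peak only in SW rottlerin, of 3.13 with a score of 50, with its midpoint at −11 bp from the TSS (chr2:162164815-162165035).

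The assembly factors of the cap, PSMD5, PSMD9 and PSMD10, had a TSS region in all 4 lists and lay between 4.32 and 5.62. The proteasome inhibitor gene PSMF1 did too, at 4.47, 4.10, 5.36 and 4.25. Of the activators, which open the core without ATP, PSME1 had 4.82, 4.89, 5.08 and 5.70 and PSME2 had 6.04, 5.99, 4.87 and 5.93. These encode the interferon-inducible activator, and both were present in all lists. The other activator genes were not: PSME3 had a peak only in the SW-labelled lists, of 2.96 and 2.94 with a score of 45 in each, and PSME4 only in NS rottlerin, of 3.25 with a score of 19, in an intron 1199 bp into the gene.

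The chaperones that assemble the core had the lowest median fold enrichment of the roles with more than 2 genes in every list, and 1 of 4 genes, PSMG4, had a TSS region in all 4 lists, at 3.15, 3.59, 3.81 and 3.90. PSMG1 had 2.92, 2.44 and 3.04 and PSMG2 had 2.35, 2.62 and 2.45, and both lacked a peak in SW DMSO. The peaks of PSMG2 were weak, with scores of 12, 23 and 15. PSMG3 had no region. The genes named for a partner were accessible in every list, PSMC3IP at 3.62, 3.34, 3.84 and 4.98 and PSME3IP1 at 6.55, 7.0, 6.73 and 7.34.

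**Figure D2:**
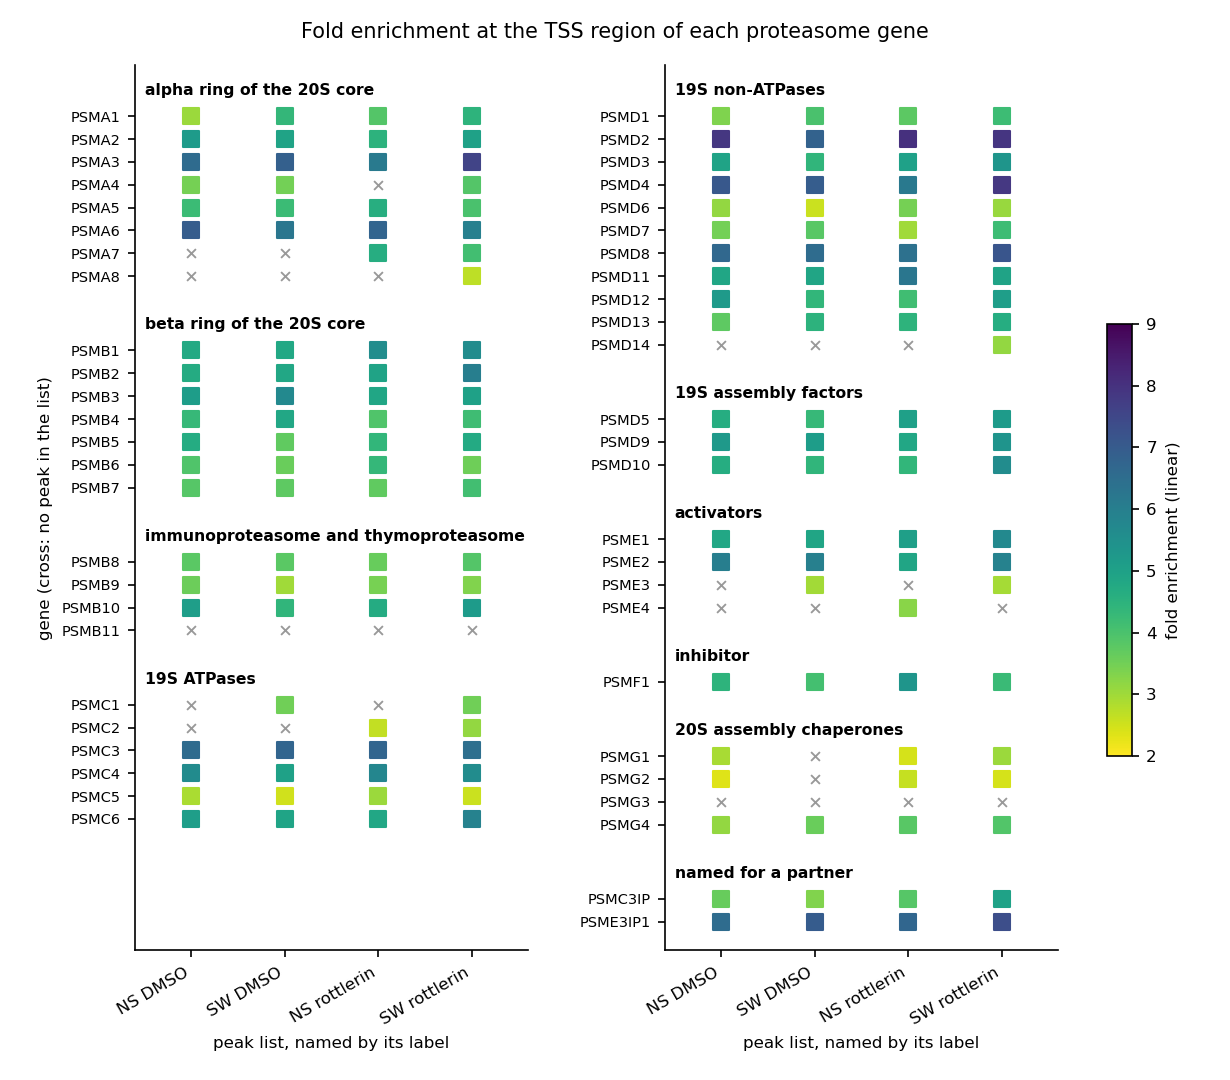
Fold enrichment over input (colour, linear scale) at the TSS region of each of the 50 genes (rows, grouped by role) in each list (columns); a cross marks no peak. PSMD2, PSMD4, PSMA3, PSME3IP1 and PSMD8 hold the darkest squares, and 12 genes have at least 1 cross, of which PSMB11 and PSMG3 have 4.

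The 10 genes with a peak in some lists only had lower scores as a set, and the ranges overlapped. The highest score of these 10 genes over the lists had a median of 47 (14 to 101), against 159 (56 to 286) for the 38 genes present in all lists. All genes showed the same order, with a median of 52 for genes in some lists and 141 for genes in all lists. That order is partly built in, because a missing peak is itself a score below the cut-off. No list pattern held more than 2 of the 10 genes: PSMA7 and PSMC2 were found in both rottlerin-labelled lists only, PSMC1 and PSME3 in both SW-labelled lists only, PSMA8 and PSMD14 in SW rottlerin only, PSME4 in NS rottlerin only, PSMG1 and PSMG2 in all lists but SW DMSO, and PSMA4 in all but NS rottlerin.

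In level, proteasome genes were close to other genes that had a TSS region. Their median fold enrichment was 4.68, 4.42, 4.60 and 4.75 in the 4 lists, against 4.46, 4.40, 4.48 and 4.50 over all genes. In shape they were also close: the median width was 424 bp against 408 bp, the region covered the TSS in 85.4% against 85.1%, and 83.3% against 82.3% were CpG-island-like in their central 300 bp (over 50% G or C, with an observed to expected CpG ratio over 0.6). The widest regions were those of PSMD13 (1875 bp), PSMB3 (1814 bp) and PSMA1 (1578 bp), and the narrowest was that of PSME3 (167 bp). A coding gene transcribed the other way from within 1 kb was present for 9 of the 50 genes. Among genes with a TSS region in any list the share was 18.8% (9 of 48), against 17.5% of all such genes, and among genes with one in all lists it was 15.8% against 20.3%. These neighbours were MRPL32 for PSMA2, SS18L1 for PSMA7, TAP1 for PSMB9, ATG4A for PSMD10, SIRT3 for PSMD13, RNF31 for PSME2, RSPRY1 for PSME3IP1, ACYP2 for PSME4 and CEP76 for PSMG2. Where the peak lies at such a shared promoter, it cannot be assigned to one of the genes. The PSME4 region does not lie there, with its midpoint in an intron 1199 bp into the gene.

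Fold enrichment was compared between lists at the TSS regions that had a peak in both. No proteasome gene differed by 1.5-fold or more in any of the 4 comparisons. For SW DMSO over NS DMSO, 39 genes had a median log2 ratio of −0.031, with 16 higher and 23 lower, and ran from 0.790-fold (PSMB5) to 1.42-fold (PSMA1), where 0.789% of all genes passed 1.5-fold. For NS rottlerin over NS DMSO, 40 genes had a median of 0.028, with 21 higher and 19 lower, from 0.796-fold (PSMD12) to 1.28-fold (PSMD11), where 1.19% of all genes passed. The first pair of comparisons shares the NS DMSO list, so their values are not independent.

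For SW rottlerin over SW DMSO, 41 genes had a median log2 ratio of 0.13, with 33 higher and 8 lower, from 0.864-fold (PSMB4) to 1.49-fold (PSMC3IP), and 1.35% of all genes passed 1.5-fold. All genes shared that shift, with a median of 0.12 and 74.4% of them higher. For SW rottlerin over NS rottlerin, 42 genes had a median of 0.11, with 29 higher and 13 lower, from 0.791-fold (PSMD11) to 1.40-fold (PSMD7), and 0.668% of all genes passed. The median over all genes was 0.07. Both comparisons share the SW rottlerin list, which has the most peaks. Less the median over all regions shared by the lists, the proteasome medians were 0.012 and 0.064, and those of the first pair became −0.0019 and −0.022, so the sign of the NS rottlerin median changed with the scale.

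**Figure D3:**
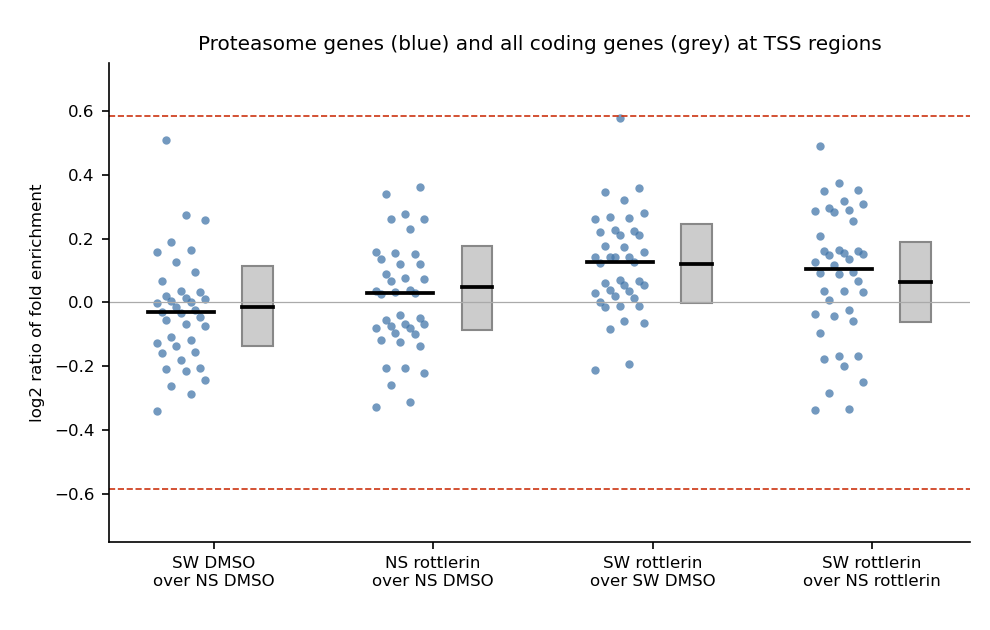
Log2 ratio of fold enrichment (y axis) in 4 comparisons between lists (x axis). Blue points are proteasome genes with their median as a bar, grey boxes span the quartiles of all protein-coding genes with their median, and the dashed lines mark 1.5-fold; no blue point passes a dashed line, and PSMC3IP at 1.49-fold comes nearest.

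Across the 38 genes with a TSS region in all lists, the highest list exceeded the lowest by a median of 1.22-fold, and this was also the median over all genes. The ratio ran from 1.04 (PSMC3) to 1.49 (PSMC3IP), followed by 1.46 for PSMA1. It reached 1.5 for 0 proteasome genes, against 4.63% of all genes. The highest value fell in SW rottlerin for 22 of the 38 genes (57.9%, against 46.9% of all genes) and the lowest in NS rottlerin for 14 (36.8%, against 21.8%).

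Away from the TSS, 41 of the 92 regions lay in 26 genes, of which 19 were upstream of the canonical transcript, 16 in introns, 3 in 3′ UTRs and 3 downstream. Of all 92 regions, 28 (30.4%, 95% Wilson interval 22 to 40.5%, counting error only) had no peak in NS DMSO, against 50.1% of the regions of all protein-coding genes. TSS regions made up 51 of the 92 regions, against 8686 of 29097 over all genes. At the TSS the count was 10 of 51 (19.6%), against 27.4% of the TSS regions of all genes. Of the 35 regions over 1 kb from every coding TSS it was 18 (51.4%), where the background was 59.8%. The other 6 lay within 1 kb of the TSS of another gene (CFAP251, EMC9, BECN1, HTR2B, TAP2 and DNAJC2), and all 6 had peaks in all 4 lists. The region at the TAP2 TSS, beyond the 3′ end of PSMB8, had 4.53, 5.42, 6.12 and 5.75.

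PSMA1 had the most regions of any proteasome gene, 8, and 7 of them lie upstream of its canonical TSS. The farthest, at −125 kb, lies beyond the annotated 5′ end of the gene, 1556 bp from the TSS of PDE3B. The others upstream lie along longer annotated transcripts. At 2 of its upstream regions, NS DMSO was the lowest list. The region at −58.3 kb (chr11:14600109-14600407) had 2.88 in NS DMSO and 4.44, 4.93 and 5.12 in the other lists, which was 1.54-fold and 1.71-fold higher in SW DMSO and NS rottlerin. The region at −116 kb (chr11:14657139-14657949), 7806 bp from the TSS of PDE3B, had 3.75 against 5.05, 5.14 and 5.22. At the TSS of PSMA1, NS DMSO was lowest as well. The region at −34.9 kb (chr11:14576460-14577302) had 3.62, 4.68 and 5.64 and no peak in SW rottlerin. That order was not shared along the locus, and the regions at −106 and −118 kb had a peak in NS DMSO and none in either rottlerin-labelled list.

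Among the regions away from the TSS with a peak in both lists, 1 of 16 passed 1.5-fold for SW DMSO over NS DMSO (background 6.28%), 2 of 16 for NS rottlerin over NS DMSO (background 7.29%), 1 of 17 for SW rottlerin over SW DMSO (background 5.69%) and 0 of 18 for SW rottlerin over NS rottlerin (background 5.23%). The first 3 of these calls fell on the PSMA1 regions at −58.3 and −34.9 kb. The other was an intronic region of PSMD11 13.9 kb from the TSS, at 5.17, 3.68, 5.54 and 6.12, where SW DMSO was the low list. At the HTR2B TSS inside PSMD1 the SW-labelled lists were low, at 4.07 and 3.64 against 5.25 and 5.39. The proteasome regions counted include the 6 within 1 kb of another gene's TSS, none of which passed 1.5-fold. The backgrounds hold only regions over 1 kb from every coding TSS, so the sets are not alike. With so few regions, these counts do not set proteasome genes apart from the background.

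The 18 regions away from the TSS without a peak in NS DMSO were mostly seen once. SW rottlerin alone held 10, in PSMC6, PSMA3, PSMC1, PSME3IP1, PSMG2, PSMD14, PSMD1 (2 regions), PSMG1 and PSMD5, of which the PSMD5 region at −1.76 kb was highest, at 5.45. NS rottlerin alone held 3, in PSMA6, PSMA3 and PSME3IP1. The 5 found in more than 1 list were an intronic region of PSMB5 (3.38, 4.76 and 3.97 in the lists other than NS DMSO), the PSMA1 region at −125 kb (4.30, 4.11 and 3.67), a PSMD12 intron (4.04 and 4.51 in the SW-labelled lists), the PSMA1 region at −16.9 kb (3.34 and 3.48 in SW DMSO and NS rottlerin) and the 3′ UTR of PSMA5 (4.25 and 4.22 in the rottlerin-labelled lists). Conversely, 5 regions were found in NS DMSO alone, in PSMA1, PSMA3, PSMD14, PSMG4 and the 3′ UTR of PSMB8, and none in SW DMSO alone. The PSMB8 region was also assigned to PSMB9, because it lies upstream within 5 kb of an annotated TSS of that gene. As shares of the 41 regions, those in SW rottlerin, NS rottlerin, NS DMSO or SW DMSO alone were 24.4%, 7.32%, 12.2% and 0%. The shares for all genes were 20.4%, 9.84%, 9.58% and 5.22%, over regions more than 1 kb from every coding TSS. Of the 35 proteasome regions that meet that limit, 10, 3, 5 and 0 were in 1 list alone, in the same order.

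**Figure D4:**
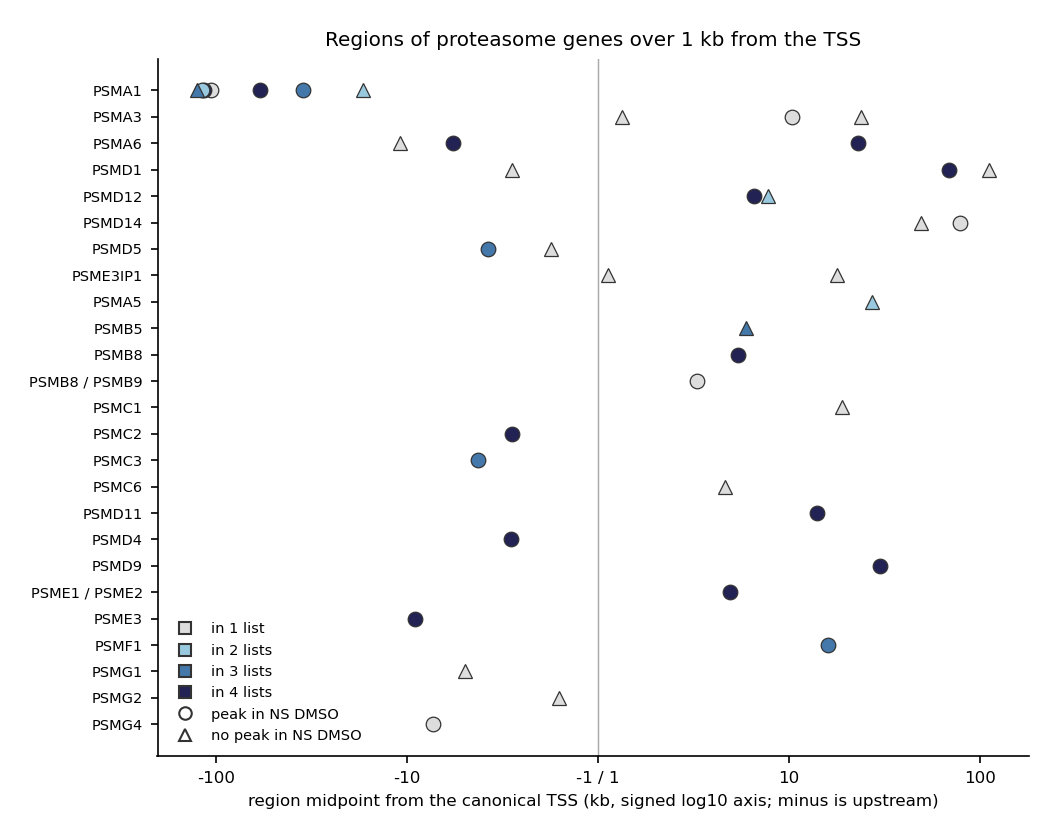
Distance of each of the 41 regions from the canonical TSS (x axis, kb, signed log10 axis) by gene (y axis); colour gives the number of lists with a peak and triangles mark regions with no peak in NS DMSO. PSMA1 has 7 of the 41 regions, all upstream, and 18 of the 41 are triangles.

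Motifs known for regulators of proteasome genes were searched on both strands from 250 bases before to 50 after the TSS. TGACNNNGC was found in 14 of 50 proteasome promoters (28.0%) and in 14% of all 20132 promoters. The genes were PSMA7, PSMB3, PSMB6, PSMB9, PSMC4, PSMD1, PSMD3, PSMD5, PSMD9, PSMD12, PSME1, PSME2, PSME4 and PSMG1. CCGGAAG was found in 20 (40.0%, against 14%). CCAAT was found in 22 (44%, against 35.9%) and GGGCGG in 35 (70.0%, against 61.0%). AAGATGGCG, known for YY1, was found in 4 (8.00%, against 2.82%), PSMA2, PSMB6, PSMB7 and PSMD11, in each from 11 to 28 bases after the TSS. TTCNNNGAA (STAT) was found in 7 (14%, against 6.48%), CACGTG (E-box) in 4 (8.00%, against 8.75%) and the palindrome of nuclear respiratory factor 1 in 5 (10.0%, against 8.35%). TGANTCA, the AP-1 site, was found in 1 (2.00%, against 5.43%), PSMD9, and GAANNTTC, paired heat shock units, in 1, PSMC3IP (2.00%, against 5.52%).

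The same counts were made for genes with a TSS region in all 4 lists. There TGACNNNGC was found in 28.9% of proteasome promoters against 15.6%, CCGGAAG in 36.8% against 24.8%, TTCNNNGAA in 13.2% against 5.91% and AAGATGGCG in 10.5% against 6.05%. By contrast, CCAAT was found in 44.7% against 46.4%, GGGCGG in 68.4% against 76.0% and the palindrome of nuclear respiratory factor 1 in 10.5% against 16.8%. CACGTG was found in 7.89% against 11.4%, TGANTCA in 2.63% against 2.92% and GAANNTTC in 2.63% against 4.42%. The shares of the antioxidant response element core, the ETS motif, the STAT motif and the YY1 motif were above those of accessible promoters in general, and the other 6 were not. In that order they rest on 11, 14, 5 and 4 of the 38 genes. The STAT and YY1 shares thus rest on few genes, and no difference was tested. A match is a run of letters and does not show that a factor was bound.

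**Figure D5:**
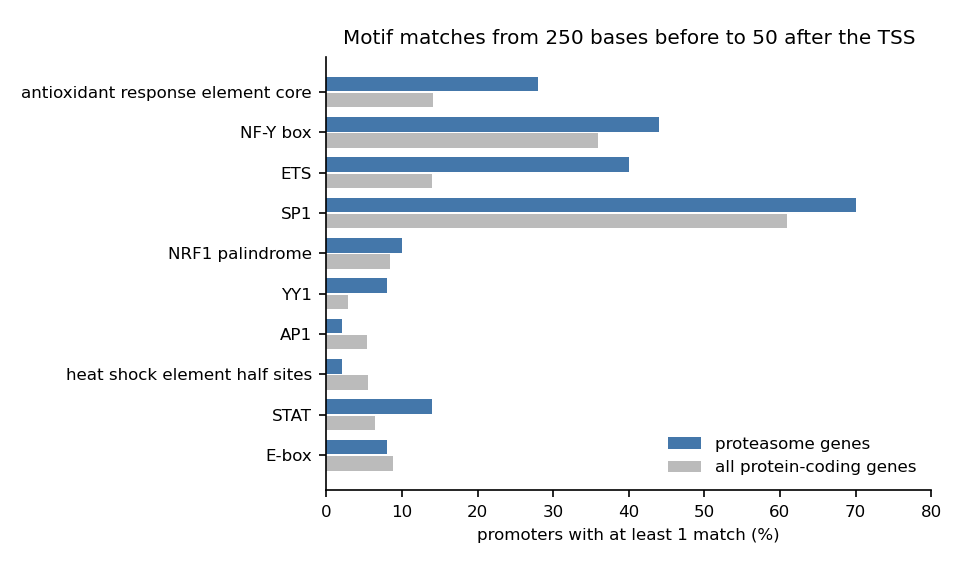
Share of promoters with at least 1 match (x axis, percent) of each motif (y axis) for the 50 proteasome genes and all protein-coding genes. The bars differ most for the ETS motif, 40.0% against 14%.

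Genes that act with the proteasome were counted in the same way. Over all protein-coding genes, 47.4% had a TSS region in any list and 31.9% had it in all 4. Of 12 genes for factors bound to it, 11 had a TSS region and 10 had it in all 4 lists, the exceptions being SEM1, a small subunit of the cap without a PSM symbol, which had no peak in NS DMSO, and ECPAS, which had none. POMP, which matures the core, had 4.58, 4.24, 6.34 and 4.82. Of 13 genes for regulators of proteasome genes, 13 had a TSS region and 7 had it in all lists. NFE2L1, which encodes the factor that raises proteasome transcription when the proteasome is inhibited, had 4.30, 5.23, 4.62 and 4.97, while NFE2L2 had a peak only in the SW-labelled lists and NFE2L3 only in the rottlerin-labelled ones. These patterns were found for 1.17% and 2.93% of all genes. VCP, the segregase that extracts NFE2L1 from the membrane, had 8.42, 9.05, 8.31 and 9.75, above every proteasome gene in each list. DDI2, the protease that activates NFE2L1, had 3.79 and 3.96 in the DMSO lists and 5.48 and 6.26 in the rottlerin-labelled lists.

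Of 8 genes for peptide loading on MHC class I, 7 had a TSS region and 4, TAP1, TAP2, B2M and IRF1, had it in all lists, while NLRC5 had none. ERAP1 and ERAP2, the peptidases that trim what the proteasome releases, had a peak only in SW rottlerin, of 4.09 and 4.54. A peak in that list alone, which is the longest list, was found for 3.48% of all genes.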

How the data were processed

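FAIRE DNA of each Jurkat sample was sequenced as 1 library. The authors used CutAdapt for adapter trimming, Bowtie2 for alignment to Hg19 (GRCh37), Picard for duplicates and MACS2, with its broad option, for peaks relative to the total input. By its label that input pools unstimulated and stimulated cells, and tool versions are not given in the sources used here. A deposited peak holds a score (10 times −log10 of its q-value, rounded down), the fold enrichment over input as a ratio, and −log10 of its p-value and of its q-value, as the authors' caller wrote them. The score was 10 or more in every list, and q-values ran up to 0.0983. The study's methods give a cut-off of 0.05, which 207, 163, 217 and 427 peaks exceeded in the order NS DMSO, SW DMSO, NS rottlerin and SW rottlerin. The number of reads per library is not known here, so no floor or interval for a level can be given, and short lists may miss weak regions.

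Peaks were joined at 0 bp (touching or overlapping) in Python 3. Genes, transcripts and exons came from GENCODE release 44 lifted to GRCh37, and no peak ended past a GRCh37 chromosome end. Regions were assigned to a gene within its body or 5 kb of any of its TSS, and its TSS region lay within 1 kb of the canonical TSS. The merging, the assignment and the ratio were tested on simulated data. Groups came from the labels. With 1 library per list no test was made, and genes past 1.5-fold were counted beside the same count over all genes. Every member is accounted for by role. The rule for naming a gene with its values took members that lacked a TSS region in some list, the 3 highest and 3 lowest in the NS DMSO list, any past 1.5-fold, the catalytic subunits and those with a region away from the TSS and no NS DMSO peak, and the other members named were added after their values were seen. The members and gene lists were chosen with earlier results of these data known. Alternatives changed the TSS, its window, the peaks kept, the overlap, the scale and the lists used. Promoter sequences supplied for another build were not used, and the GRCh37 genome was read instead. Counts over genes for ubiquitin and its shuttles are not reported here.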

Additional observations from a re-analysis of the deposited data

How the results depend on the processing

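Each of 11 results was recomputed under alternatives, 65 values in all. Of these, 57 moved less than the limits set (1.5 times for a count, 0.1 for a log2 median, the 95% Wilson interval for a share), and 0 changed direction beyond them. The genes with a TSS region in all 4 lists numbered 34 to 40 of 50, and those with one in any list 42 to 48. The share of regions without an NS DMSO peak, 30.4%, was 19.6% over TSS regions alone. By the construction of the alternatives, it was also lower when every list was held to its 18977 highest-scoring peaks, at 17.9%, and without the list labelled SW rottlerin, at 19%. The last, like every leave-one-list value and the region covering the TSS, was chosen after seeing the data. The median log2 ratio of SW rottlerin over SW DMSO, 0.13, was 0.012 less the median over all shared regions. At a lower fold limit (a ratio of 5 to 4) in place of 1.5, 2 genes passed for SW DMSO over NS DMSO, 3 for NS rottlerin over NS DMSO, 3 for SW rottlerin over SW DMSO and 6 for SW rottlerin over NS rottlerin, against 0 each at 1.5. These are 5.13, 7.5, 7.32 and 14.3% of the proteasome genes compared, beside 9.39, 12.8, 15.2 and 11.7% of all genes. No paired analysis was possible because each list is 1 library. The unknown read depth limits every statement on a missing peak.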
